A study of Mus musculus with 36 samples.

Results

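Lungs of type 1 diabetic (T1D) mice were set against lungs of mice with diet-induced obesity (DIO), both kept in filtered air, to show how the transcriptomes of these metabolic disorders differ before any particle exposure. The comparison holds the 6 lung libraries labelled T1D control (T1DC, 3 libraries) and DIO control (DIOC, 3 libraries), of 18 lung and 36 lung and liver libraries in all, and covers the 13973 of 20098 listed genes that reached 1 FPKM (fragments per kilobase of transcript, scaled to the library's mapped fragments) or more in at least 3 lung libraries. All mice were male C57BL/6J animals, killed at 18 weeks of age after 4 weeks in the exposure chambers. T1DC mice ate the normal diet and had received 5 daily injections of low-dose streptozotocin, which destroys the insulin-producing beta cells of the pancreas, whereas DIOC mice were fed for 10 weeks on a high-fat diet (45%) and received no streptozotocin. Diet and streptozotocin therefore changed together and cannot be told apart in this contrast. Lean, normal-diet mice in filtered air (NDC, 3 libraries) give a reference level, and the diabetic and obese mice that breathed ambient particulate matter (PM) for the same 4 weeks (T1DE and DIOE, 3 libraries each) give the same contrast without any shared library.

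Insulin promotes glucose uptake and lipid storage. The paper reported raised blood glucose in both models, far more so in T1D, and disturbed blood lipids in both, more so in DIO. Interferons, released by infected or stressed cells and by lymphocytes, act through STAT transcription factors to switch on a shared set of antiviral and antigen-presenting genes, and in the lung epithelium, endothelium and macrophages all respond to them. The transcription factor p53 responds to DNA damage, and genes for the mitotic spindle are switched on only in dividing cells, which are rare in the resting adult lung.

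All 6 libraries carried the defining transcripts of lung: Sftpc of alveolar type 2 cells stood between 12035 and 24262 FPKM, Ager of type 1 cells between 1098 and 1976 FPKM, and Scgb1a1 of club cells between 34236 and 52738 FPKM. Depth, read from the spacing of low FPKM values, was alike, at about 19400000 to 20100000 fragments a library, or 17600000 to 22300000 under other transcript lengths. Transcripts of other tissues separated the obese libraries. Adipocyte markers (18 of 18 detected) summed to 3174 and 3859 FPKM in DIOC replicates 1 and 2 but to 376.8 FPKM in DIOC replicate 3 and 368.2 to 703.4 FPKM in T1DC. Brown-fat Ucp1 read 113, 211 and 0.34 FPKM in DIOC and 0.07 to 0.17 FPKM in T1DC, and the cartilage genes Col2a1 and Acan were at or below 0.12 FPKM in DIOC replicate 3 and in T1DC. Skeletal muscle and squamous epithelium markers (Acta1, Krt13) were present in DIOC replicates 1 and 2 and in all 3 T1DC libraries, but DIOC replicate 3 had 0.17 FPKM Acta1 and 0.33 FPKM Krt13 and instead carried hepatocyte transcripts, with 319 FPKM Alb against 2.1 to 31.7 FPKM elsewhere. T1DC replicate 3 was low in B-cell and T-cell transcripts, described with those genes. In bulk tissue, fewer cells of a type and less RNA per cell cannot be told apart.

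**Figure D1:**
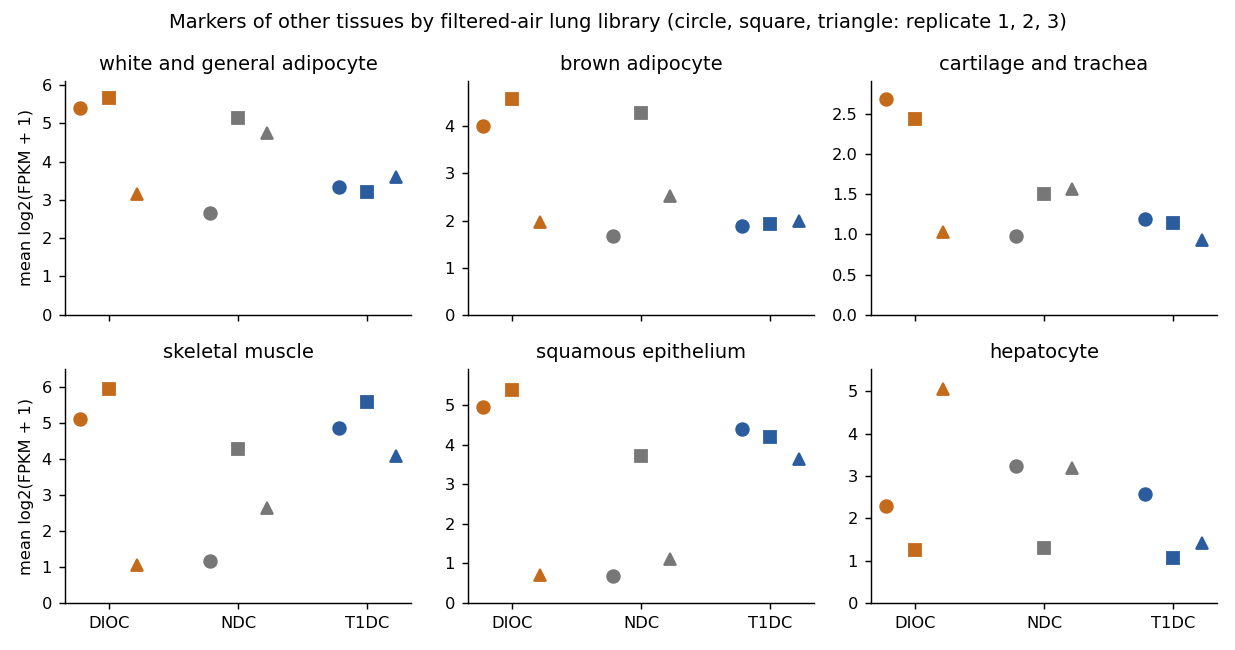
Mean log2(FPKM + 1) over each list of markers of another tissue (y axis) in the 9 filtered-air lung libraries, grouped as DIOC, NDC and T1DC (x axis), with 1 symbol per library. DIOC replicates 1 and 2 stand above all T1DC libraries for the adipocyte lists (5.40 and 5.66 against 3.21 to 3.60 for general adipocyte markers), and DIOC replicate 3 is low for muscle (1.06) and squamous markers (0.71) and high for hepatocyte markers (5.06).

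A gene was called at a Benjamini-Hochberg adjusted p under 0.05 and a fold over 1.5, in a limma model of log2(FPKM + 1) fitted to all 18 lung libraries. Diabetic and obese lungs differed in 4 genes (0.0286% of those tested): Ifi44, Psrc1 and Iqgap3 rose in T1DC and Glb1l2 fell. By the looser criterion of an unadjusted p under 0.05 with the same fold, called nominal from here on, 171 genes were higher in T1DC (1.22%) and 144 were lower (1.03%). All 3 T1DC libraries lay above all 3 DIOC libraries for 1137 genes (8.14%) and below them for 760 genes (5.44%). The median log2 change over all genes was 0.0033 on FPKM, which is scaled to each library's total. Leaving out T1DC replicate 1, T1DC replicate 3 or DIOC replicate 1 ended all 4 calls. Without DIOC replicate 2 only Glb1l2 was still called among them (adjusted p = 0.0491), without DIOC replicate 3 Glb1l2 and Ifi44 were (both 0.0373), and without T1DC replicate 2 all 4 were (0.00999 to 0.0242). None was called in a fit of the 6 libraries alone or with adipocyte, muscle and hepatocyte marker scores as covariates, although every direction held.

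Glb1l2 encodes a protein related to lysosomal beta-galactosidase (chr9:26763044-26806473, GRCm38.p6). Its level was 23.25, 20 and 22.75 FPKM in DIOC and 10.82, 11.78 and 10.70 FPKM in T1DC. The groups were far apart and each was tight, with means of 22 ± 1.75 and 11.1 ± 0.59 FPKM (SD, n = 3). NDC libraries, at 13.36, 13.78 and 12.80 FPKM, lay between them and nearer to T1DC. The log2 change was -0.93 ± 0.12 (SE), with an adjusted p of 0.0202 that reached 0.12 without DIOC replicate 1 and 0.116 without T1DC replicate 3. Of the lysosomal enzyme list, Glb1l2 was the only 1 of 36 members that met the nominal criterion in either direction. Over all genes 1.22% were nominally higher and 1.03% nominally lower.

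Ifi44 encodes an interferon-induced cytoplasmic protein (chr3:151730922-151749910) and read 3.75, 2.96 and 4.01 FPKM in DIOC against 11.11, 8.80 and 15.96 FPKM in T1DC. Every T1DC library exceeded the DIOC maximum by more than the whole DIOC range. The fold was 3.35 on the FPKM scale and the log2 change 1.47 ± 0.20 (SE, adjusted p = 0.0212). NDC libraries (4.76, 5.67 and 5.16 FPKM) lay above all DIOC and below all T1DC libraries.

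Psrc1, which encodes a microtubule-binding protein of the mitotic spindle and is a known p53 target (chr3:108383804-108388231), was at 1.02, 0.87 and 0.97 FPKM in DIOC and at 2.85, 2.60 and 3.13 FPKM in T1DC. The level was 3.00 times as high in T1DC, with a log2 change of 0.98 ± 0.15 (SE, adjusted p = 0.0313). Iqgap3, a scaffold protein of proliferating cells (chr3:88082002-88121048), read 0.31, 0.52 and 0.10 FPKM in DIOC and 1.62, 1.42 and 1.89 FPKM in T1DC. It was barely detected in obese lung, and its log2 change was 1.02 ± 0.15 (SE, adjusted p = 0.0313). Both genes are low, so the pseudocount bears on them: with a pseudocount of 0.1 their adjusted p was 0.0564 and 0.0955.

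**Figure D2:**
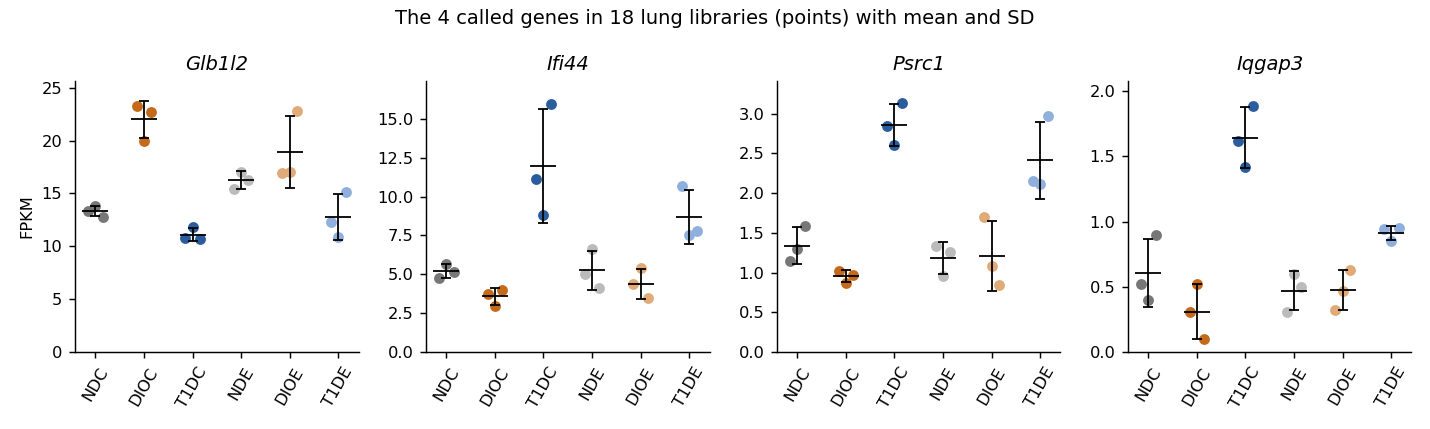
FPKM (y axis) of the 4 called genes in the 18 lung libraries by group (x axis: NDC, DIOC and T1DC in filtered air, NDE, DIOE and T1DE in PM), points for libraries, with the mean and SD of 3. Glb1l2 has its highest filtered-air levels in DIOC (20 to 23.25 FPKM), and Ifi44, Psrc1 and Iqgap3 have theirs in T1DC.

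Across the 18 lung libraries, the genes whose log2 levels were most like Ifi44 were Cmpk2 (r = 0.95), Ifit1 (0.94), Apol9b (0.92), Usp18 (0.92) and Ifit3b (0.91). Those most like Psrc1 were Bax (0.91), Ifi44 (0.86), Cmpk2 (0.85), Gdf15 (0.84) and Ckap2 (0.83). Iqgap3 was followed most closely by Ckap2 (0.90), Lgals3bp (0.89), Fam64a (0.87), Flywch1 (0.85) and Irf7 (0.85). Glb1l2 had looser partners, Gde1 (0.79), Grhpr (0.75), Khk (0.75), Bbs2 (0.75) and Thnsl2 (0.75). These are Pearson correlations over libraries that share groups, given as a description of likeness.

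Interferon-stimulated genes were higher in diabetic than in obese lung as a group. Of the 45 tested genes on this list, 28 were higher by the nominal criterion and none was lower, against 1.22% and 1.03% of all genes, and 1, Ifi44, was called. The median log2 change was 0.86, 43 of 45 changes were positive and in 39 all T1DC libraries lay above all DIOC libraries, against 8.14% of all genes. Of the 15 genes with the smallest p among the higher, well-expressed genes, 10 were on the list: Ifi44, Cmpk2, Usp18, Phf11d, Ifit3, Ifit3b, Irf7, Rtp4, Ifit1 and Parp12.

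Irf7, the transcription factor that amplifies type I interferon production, had 15.54, 14.87 and 12.94 FPKM in DIOC and 61.01, 29.56 and 129.51 FPKM in T1DC. The obese libraries lay within 3 FPKM of each other while the diabetic libraries differed several-fold among themselves, and the log2 change was 2.03 ± 0.43 (SE, adjusted p = 0.142). Ifit3, whose product binds viral RNA together with other IFIT proteins, read 33.76, 25.14 and 36.64 FPKM against 90.70, 53.28 and 187.10 FPKM, a log2 change of 1.59 ± 0.32 (adjusted p = 0.115). Reads of Ifit3 and its near-identical neighbour Ifit3b (7.96, 6.26 and 8.05 against 25.37, 12.56 and 38.60 FPKM) may be divided between them with error. Ifit1 had the same order of T1DC libraries, at 8.25, 6.43 and 8.15 FPKM in DIOC and 21.64, 13.69 and 53.42 FPKM in T1DC.

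Other members lay close to the threshold. Their groups did not overlap, which the ranking by smallest p required of Usp18 and Cmpk2. Usp18, the protease that removes ISG15 and dampens the interferon receptor, was at 9.75, 9.51 and 12.52 FPKM in DIOC and 20.73, 18.08 and 38.84 FPKM in T1DC (adjusted p = 0.0945). Cmpk2, a mitochondrial nucleotide kinase, read 8.52, 7.34 and 9.0 against 18.18, 12.88 and 23.58 FPKM, and its adjusted p of 0.0552 just missed the threshold. The RNA sensor Ifih1 (MDA5) was the steadiest of these genes, at 8.08, 7.53 and 7.55 against 11.67, 10.27 and 14.35 FPKM, a log2 change of 0.58 ± 0.10 (adjusted p = 0.0657).

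T1DC replicate 3 was the highest and T1DC replicate 2 the lowest of the diabetic libraries: mean log2(FPKM + 1) over the list was 4.34, 4.02 and 4.91 in T1DC replicates 1 to 3 and 3.66, 3.50 and 3.50 in DIOC. NDC libraries stood between, at 3.81, 3.97 and 4.22, and their highest was above T1DC replicate 2. Without T1DC replicate 3 the median log2 change fell to 0.55 and the nominal count to 21 of 45. Against DIOC replicate 3 alone, the obese library low in adipose transcripts, the median was 0.89, a value from 1 obese library.

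**Figure D3:**
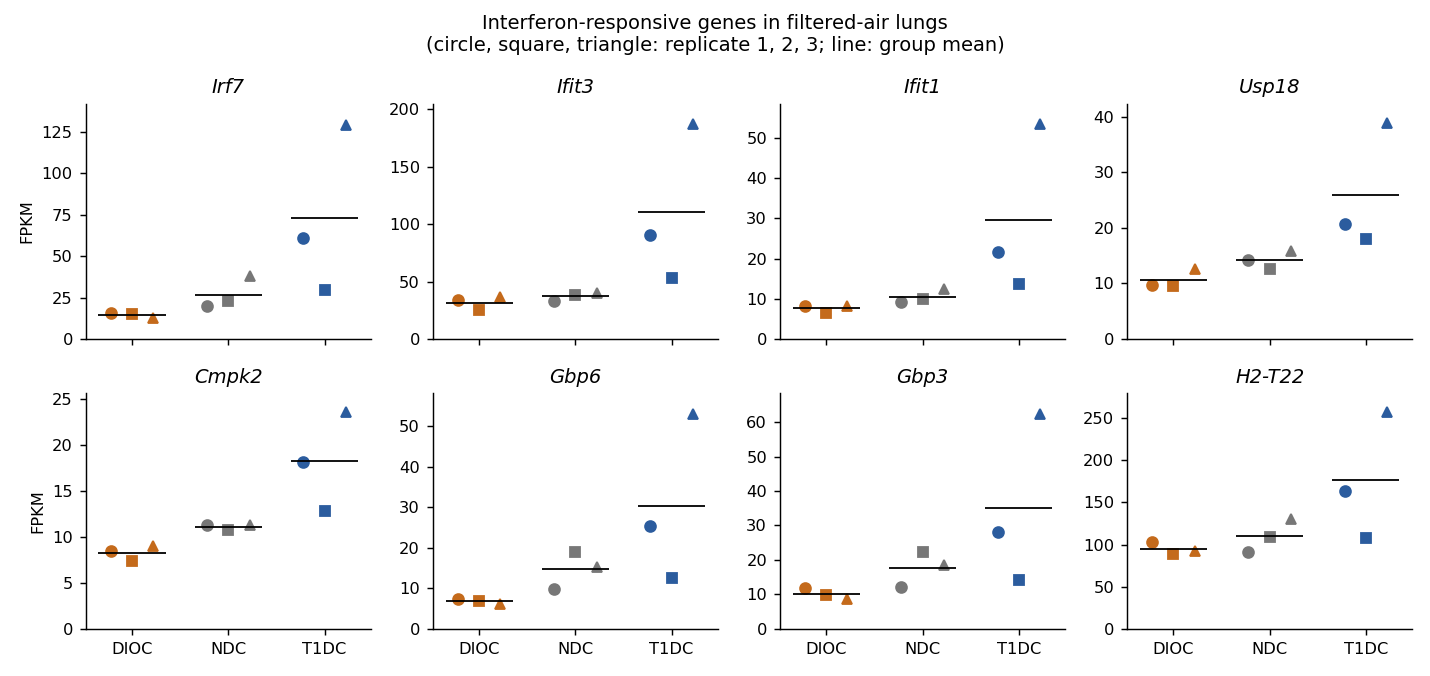
FPKM (y axis) of 8 interferon-responsive genes in the 9 filtered-air lung libraries by group (x axis), with a symbol per replicate and a line at the group mean. DIOC libraries are low and close together (Irf7 12.94 to 15.54 FPKM), and T1DC libraries are spread, with replicate 3 highest (Irf7 129.51 FPKM) and replicate 2 lowest. NDC means lie between the other means. NDC libraries reach above T1DC replicate 2 in Irf7 (37.80 against 29.56 FPKM), Gbp6, Gbp3 and H2-T22.

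Guanylate-binding proteins and other targets of interferon gamma showed a larger median. Among 27 tested genes on that list the median log2 change was 1.06 and none was called. By the nominal criterion 20 were higher and none was lower, against 1.22% and 1.03% of all genes. Gbp6, a GTPase that attacks the vacuoles of intracellular pathogens, read 7.45, 6.89 and 6.04 FPKM in DIOC and 25.45, 12.63 and 52.97 FPKM in T1DC (log2 change 1.79 ± 0.40, adjusted p = 0.173). Its relatives Gbp3 (11.86, 9.97 and 8.57 against 28.13, 14.30 and 62.35 FPKM) and Gbp7 (10.97, 8.91 and 8.65 against 23.64, 13.94 and 50.50 FPKM) had the same ranking of diabetic libraries. Gbp genes lie in clusters of close copies, so reads may be shared among them. Mean log2(FPKM + 1) over the list was 4.26, 3.64 and 4.80 in T1DC and 3.51, 3.25 and 3.23 in DIOC. NDC libraries, at 3.54, 4.31 and 4.08, lay above all DIOC libraries and overlapped the T1DC range. Without T1DC replicate 3 the nominal count fell to 9 of 27 and the median to 0.69, and with 3 covariates (muscle and squamous, brown adipocyte and hepatocyte marker scores) the count was 5.

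All 19 MHC class I pathway genes had positive changes with a median of 0.37. None was called, and 3 were nominally higher, against 1.22% of all genes. That count was 0 without T1DC replicate 3, 0 with the 3 covariates, 1 without DIOC replicate 2 and 5 without T1DC replicate 2. Mean log2(FPKM + 1) over these genes was 7.14, 6.80 and 7.26 in T1DC and 6.70, 6.57 and 6.73 in DIOC. NDC libraries, at 6.80, 7.03 and 7.21, lay above all DIOC libraries and overlapped the T1DC range. H2-T22, a non-classical class I molecule, read 103.21, 88.64 and 92.11 FPKM in DIOC and 163.68, 107.25 and 257.25 FPKM in T1DC (log2 change 0.80 ± 0.24, adjusted p = 0.38). The peptide-loading chaperones changed less but more evenly: Calr was at 152.05, 161.55 and 144.61 against 196.01, 208.98 and 183.27 FPKM, and Tapbp at 78.40, 80.45 and 92.08 against 105.96, 98.66 and 126.97 FPKM. Of 12 class II genes none met the nominal criterion, and the median was 0.11. Their mean log2(FPKM + 1) was 6.02, 5.95 and 5.19 in T1DC, lowest in replicate 3, which was low in B-cell transcripts, and 5.66 to 5.87 in DIOC. The difference between the classes was not tested.

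Promoter sequences were read for these genes because the interferon-activated complexes bind a known element, GAAANNGAAA on either strand, in the proximal promoter. RefSeq windows of GRCm38.p6, running from 250 bases before to 50 bases after each start, held that element for 14 of 32 interferon-stimulated genes with a window (43.8%) and for 11 of 18 genes of the interferon gamma list (61.1%), against 3.92% of the 11144 tested genes with a window and 3.44% of all 32851 windows. For the genes described, the stretches before the start of the RefSeq window are printed in the direction of transcription and with the element in capitals, from chr19:34583353-34583436 (plus strand) for Ifit3, chr19:34640765-34640833 (plus) for Ifit1, chr3:142559979-142560034 (plus) for Gbp3 and chr3:142530263-142530312 (plus) for Gbp7.
Ifit3: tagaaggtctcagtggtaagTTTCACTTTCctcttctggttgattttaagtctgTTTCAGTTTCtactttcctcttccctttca
Ifit1: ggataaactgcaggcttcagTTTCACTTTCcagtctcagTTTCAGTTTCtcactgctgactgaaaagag
Gbp3: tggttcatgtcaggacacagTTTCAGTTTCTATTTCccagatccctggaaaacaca
Gbp7: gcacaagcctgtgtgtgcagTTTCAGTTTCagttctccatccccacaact
Before the start, Ifit3 and Ifit1 each held 2 copies, Gbp3 held 2 overlapping copies in 1 of its 2 windows and Gbp7 held 1, and the copy TTTCAGTTTC occurs in all 4 stretches. A window belongs to 1 RefSeq transcript: its start is the first base of the whole gene for Ifit1 and Gbp7, but lies 28 bases inside the gene for Gbp3 and 410 bases inside it for Ifit3, whose printed stretch is thus within the gene's span. These letters were not found before the start in the windows of Ifi44, Irf7, Cmpk2 and Ifih1. A match is a description of sequence, not a measured binding site.

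Many genes of mitosis read higher in diabetic lung. Of 33 tested replication and mitosis genes, 17 were nominally higher and none lower, against 1.22% and 1.03% of all genes. In this list 31 changes were positive and the median log2 change was 0.69. Prc1, which bundles microtubules of the central spindle, read 1.65, 2.10 and 1.72 FPKM in DIOC and 5.28, 4.93 and 4.25 FPKM in T1DC (log2 change 1.04 ± 0.23, adjusted p = 0.17). Every diabetic library read more than 2 times every obese one in this gene. Cdc20, the activator of the anaphase-promoting complex, was at 2.78, 3.78 and 2.75 FPKM against 7.45, 7.32 and 6.43 FPKM. The spindle genes Kif20a (1.07, 1.71 and 0.90 against 3.54, 2.78 and 2.65 FPKM) and Ckap2l (1.17, 1.46 and 0.65 against 3.02, 3.22 and 2.30 FPKM) likewise had groups that did not overlap.

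In contrast to the interferon genes, T1DC replicate 3 was the lowest diabetic library for mitosis, with a mean log2(FPKM + 1) of 2.32 over the list against 2.80 and 2.54 in replicates 1 and 2 and 1.89 to 2.09 in DIOC. Without it, 19 of 33 genes met the nominal criterion. NDC libraries, at 2.24, 2.69 and 2.94, overlapped the T1DC range. With muscle and squamous, brown adipocyte and hepatocyte scores as covariates the median was 0.39 and 1 gene met the criterion, while with adipocyte and cartilage scores the median was 0.81 and 18 did.

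Ccnd1, cyclin D1, which drives entry into the cell cycle, was among the evenest differences: 39.25, 42.27 and 38.43 FPKM in DIOC against 67.88, 73.17 and 73.32 FPKM in T1DC. Group means were 40.0 ± 2.02 and 71.5 ± 3.10 FPKM (SD, n = 3). The log2 change of 0.82 ± 0.14 had an adjusted p of 0.0552. NDC libraries, at 67.10, 62.32 and 62.70 FPKM, were close to T1DC, so that DIOC was the low group.

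Promoters of mitotic genes commonly hold a short element, TTTGAA on either strand, known as the cell cycle genes homology region. It was found in the windows of 15 of 28 replication and mitosis genes (53.6%), against 14.7% of the 11144 tested genes with a window and 17.9% of all windows. The stretches are printed with the element in capitals for Iqgap3, a called gene (chr3:88082012-88082050, plus strand), Prc1 (chr7:80294426-80294471, plus), Ckap2l (chr2:129297217-129297262, minus) and Cdc20 (chr4:118437344-118437381, minus).
Iqgap3: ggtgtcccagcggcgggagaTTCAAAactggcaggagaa
Prc1: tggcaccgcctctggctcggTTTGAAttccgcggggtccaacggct
Ckap2l: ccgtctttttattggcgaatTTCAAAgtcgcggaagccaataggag
Cdc20: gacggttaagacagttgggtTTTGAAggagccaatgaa
Prc1 held it before the start in 1 of its 2 windows, the one printed, and in the other window the same element lies across the start. The element ended between 13 and 25 bases before the start of the window's transcript in these 4 genes. That start is the first base of the gene for Cdc20 and lies 16, 31 and 49 bases inside the gene for Ckap2l, Prc1 and Iqgap3. The printed element is thus within the gene's span for Prc1 and Iqgap3. The element was not found before the start in the windows of Psrc1.

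Targets of p53 overlapped with this group. Of 24 tested targets, 8 were nominally higher and none lower, against 1.22% and 1.03% of all genes. In this list 20 changes were positive, the median was 0.32 and 1, Psrc1, was called. Ckap2, a spindle-associated p53 target, read 0.93, 1.01 and 0.43 FPKM in DIOC and 3.52, 2.81 and 3.46 FPKM in T1DC (log2 change 1.26 ± 0.21, adjusted p = 0.0552). Aen, an exonuclease of apoptosis, was at 7.33, 7.47 and 7.14 against 11.21, 10.83 and 13.40 FPKM (log2 change 0.62 ± 0.13, adjusted p = 0.133). Eda2r, a death-receptor relative that binds ectodysplasin A2, read 0.72, 1.09 and 0.83 against 1.99, 1.60 and 2.64 FPKM.

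The cell-cycle inhibitor Cdkn1a (p21), a p53 and glucocorticoid target, differed less firmly: 111.10, 105.36 and 168.40 FPKM in DIOC against 163.67, 165.01 and 384.07 FPKM in T1DC, where DIOC replicate 3 overlapped the diabetic range. Its NDC levels were 65.02, 50.78 and 44.97 FPKM, below both groups. Over the whole p53 list, mean log2(FPKM + 1) was 4.18, 4.09 and 4.37 in T1DC, 3.78 to 3.83 in DIOC and 3.71 to 3.81 in NDC. Leaving out T1DC replicate 3 left 4 of 24 genes at the nominal criterion with a median of 0.28.

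**Figure D4:**
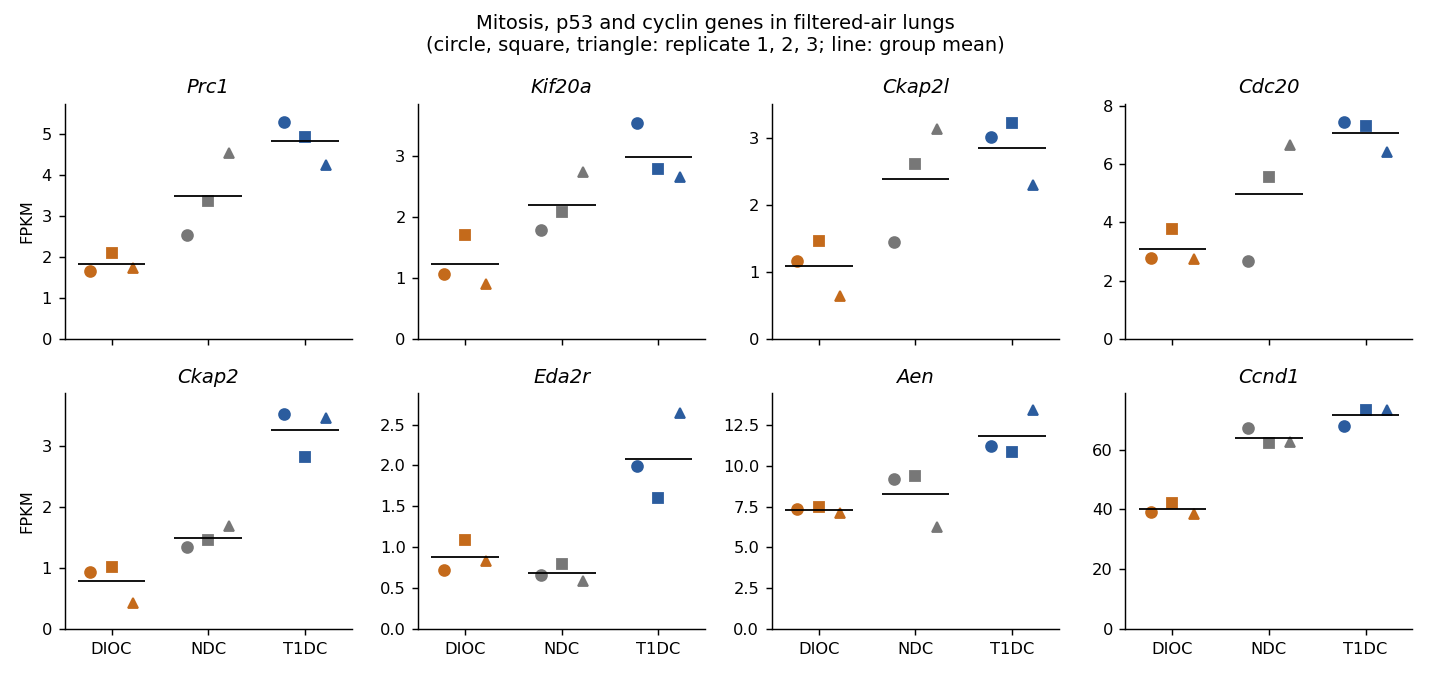
FPKM (y axis) of mitosis genes (Prc1, Kif20a, Ckap2l, Cdc20), p53 targets (Ckap2, Eda2r, Aen) and cyclin D1 (Ccnd1) in the 9 filtered-air lung libraries by group (x axis), with a symbol per replicate and a line at the group mean. T1DC lies above DIOC without overlap in all 8 genes, and NDC lies near T1DC for Ccnd1 (62.32 to 67.10 FPKM) but near DIOC for Eda2r (0.59 to 0.79 FPKM).

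Vitamin A handling appeared on both sides of the ranking. Lrat, which esterifies retinol for storage, was the highest-ranked gene after Ifi44 among the higher, well-expressed genes, at 2.12, 1.90 and 3.74 FPKM in DIOC and 9.82, 8.79 and 6.72 FPKM in T1DC (log2 change 1.42 ± 0.23, adjusted p = 0.0552). Cyp26b1, which degrades retinoic acid, read 6.82, 8.63 and 15.24 against 45.26, 19.44 and 65.42 FPKM (log2 change 1.89 ± 0.41, adjusted p = 0.153). Retsat, which saturates retinol, was lower, at 29.70, 37.60 and 20.52 against 17.99, 15.15 and 12.76 FPKM (log2 change -0.86 ± 0.24, adjusted p = 0.344). None of the 3 genes passed the adjusted threshold. Retsat was highest in the obese libraries that were high in adipose transcripts, whose part in this difference was not tested.

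Apart from Glb1l2, genes lower in T1DC that headed the ranking did not pass adjustment. Cd300lg, a receptor of capillary endothelium, read 15.75, 18.02 and 14.86 FPKM in DIOC and 8.78, 7.03 and 5.85 FPKM in T1DC (log2 change -1.08 ± 0.21, adjusted p = 0.115). Cyp2d22, a cytochrome P450, was at 37.22, 37.10 and 41.25 against 28.08, 22.27 and 25.66 FPKM (log2 change -0.59 ± 0.12, adjusted p = 0.133). NDC levels of Cyp2d22 (25.06, 27.53 and 22.87 FPKM) matched those of T1DC within their spread, leaving DIOC as the high group. Next came the glyoxylate reductase Grhpr (17.53, 19.13 and 16.24 against 11.84, 11.06 and 8.0 FPKM) and the peroxisomal membrane protein Pxmp2 (13.15, 12.42 and 9.90 against 8.02, 7.06 and 7.11 FPKM). Groups that do not overlap were a condition of this ranking. The remaining genes in this ranking were Camp, Aldh1l1, G6b, Retsat, Cytl1, Rbpms2, Clec1b, Cd1d1, Apoc1 and Ankrd63, with log2 changes from -2.83 (Camp) to -0.68 (G6b).

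All 40 fatty acid oxidation genes had negative changes in T1DC against DIOC, from -1.54 to -0.04 with a median of -0.75. Of these, 12 were nominally lower, against 1.03% of all genes, and none was called. The nominal count was 2 without DIOC replicate 2 and 26 without DIOC replicate 3, and in 15 of the 40 genes all T1DC libraries lay below all DIOC libraries, against 5.44% of all genes. Hadh, a dehydrogenase of the beta-oxidation spiral, read 87.99, 116.59 and 66.95 FPKM in DIOC and 52.94, 57.83 and 36.10 FPKM in T1DC. Acot2, a mitochondrial acyl-CoA thioesterase, was at 15.18, 18.52 and 20.14 against 11.89, 11.89 and 14.43 FPKM, and DIOC replicate 3, which was low in adipose transcripts, was its highest library.

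The level of the pathway followed the adipocyte markers across the obese libraries. Its mean log2(FPKM + 1) was 5.58 and 5.85 in DIOC replicates 1 and 2 but 4.76 in DIOC replicate 3 and 4.59 to 4.75 in T1DC. Against DIOC replicate 3 alone the median log2 change was -0.10. The tricarboxylic acid cycle (21 of 21 negative) had a median of -0.54, and of 0.04 against that library. Oxidative phosphorylation (39 of 39 negative) had medians of -0.43 and -0.02. Lipid droplet genes, 19 of 19 negative with a median of -0.53, had a median of 0.12 against it. These medians rest on 1 obese library, which also carried hepatocyte transcripts. The fatty acid oxidation median was -0.17 with adipocyte and cartilage scores, a choice made with the data seen, as covariates. The part of other tissues in these differences was not tested.

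Lymphocyte transcripts set T1DC replicate 3 apart from its group. The B-cell receptor gene Cd79a read 68.88, 91.53 and 65.16 FPKM in DIOC and 68.45, 60.47 and 11.84 FPKM in T1DC. Over the B and plasma cell list the mean log2(FPKM + 1) was 4.27, 4.16 and 2.63 in T1DC against 3.99 to 4.57 in DIOC, and the list's median log2 change of -0.69 became -0.10 without that library. T and NK cell genes had a median of -0.34 with 1 of 29 nominally higher, against 1.22% of all genes. That gene was Ncr1, the NK receptor NKp46, at 1.94, 1.42 and 1.39 FPKM in DIOC and 3.22, 3.48 and 3.81 FPKM in T1DC (log2 change 0.81 ± 0.17, adjusted p = 0.133), and T1DC replicate 3 was its highest library.

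Of 15 tested genes on the neutrophil list, 3 were nominally lower and 1 higher, against 1.03% and 1.22% of all genes, and none was called. The list's mean log2(FPKM + 1) overlapped between the groups, with DIOC libraries at 5.56, 4.02 and 4.23 and those of T1DC at 3.34, 3.85 and 4.23. Its median log2 change of -0.72 was -0.15 without DIOC replicate 1. Camp, the cathelicidin peptide of immature neutrophils, read 14.76, 3.61 and 9.86 FPKM in DIOC and 0.09, 0.57 and 0.29 FPKM in T1DC (log2 change -2.83 ± 0.63, adjusted p = 0.173). NDC libraries, at 0.19, 0.10 and 0.29 FPKM, resembled T1DC. Ngp, a second granule protein, followed at 39.10, 7.22 and 24.05 against 0.94, 1.78 and 5.05 FPKM. Lcn2, lipocalin 2, which epithelium also makes, went the other way, at 144.89, 108.44 and 158.47 against 182.56, 237.87 and 321.31 FPKM.

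Of 24 elastic fibre genes 2 were nominally higher, of 27 matrix proteases and inhibitors 4 were, and of 38 collagens and matrix genes 2 were, against 1.22% of all genes, with none lower and none called in these lists. Without T1DC replicate 3 these counts were 1, 2 and 0, and without DIOC replicate 1 they were 1, 2 and 1. Eln, the elastic fibre protein elastin, read 77.82, 84.21 and 94.05 FPKM in DIOC and 136.70, 194.17 and 170.79 FPKM in T1DC (log2 change 0.95 ± 0.24, adjusted p = 0.271). Both groups were above NDC, at 62.11, 36.44 and 46.19 FPKM. The stromelysin Mmp3 was at 11.16, 11.72 and 17.59 against 21.85, 26.98 and 45.07 FPKM.

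Steroid and sterol programmes differed less. Among 22 glucocorticoid targets 4 were nominally higher, against 1.22% of all genes, and none was without T1DC replicate 3. In that library Fam107a stood at 83.54 FPKM, against 21.36 and 18.95 FPKM in the other T1DC libraries and 9.12 to 17.31 FPKM in DIOC. Of 23 cholesterol synthesis genes none met the nominal criterion, but 17 changes were positive and in 8 all T1DC libraries lay above DIOC, against 8.14% of all genes. Sqle, the squalene epoxidase, was at 12.57, 14.28 and 12.60 FPKM in DIOC and 17.63, 22.26 and 18.06 FPKM in T1DC.

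No gene on the list of insulin and IGF signalling or on that of aryl hydrocarbon receptor targets was called. Of 25 insulin and IGF signalling genes 1 was nominally higher, against 1.22% of all genes: Igfbp3, the main carrier of insulin-like growth factors, at 38.69, 39.09 and 44.88 FPKM in DIOC and 53.75, 55.33 and 96.47 FPKM in T1DC (log2 change 0.68 ± 0.20, adjusted p = 0.364). Of 10 targets of the aryl hydrocarbon receptor 2 were nominally higher, against the same 1.22%. Cyp1a1, its most inducible target, read 4.0, 5.57 and 7.65 against 9.44, 9.21 and 22.93 FPKM, and the quinone reductase Nqo1, which NRF2 also controls, read 10.71, 11.66 and 7.03 against 17.34, 12.93 and 29.96 FPKM. In both genes all T1DC libraries lay above DIOC and T1DC replicate 3 was the highest. Nqo1 was the only 1 of 31 NRF2 targets at the nominal criterion. Without T1DC replicate 3 the counts for these 3 lists were 0, 1 and 0. Glucose uptake and glycolysis genes (26 tested, median -0.22, 1 nominally lower) and genes of amino acid catabolism and gluconeogenesis (26 tested, median -0.28, 2 nominally lower) had negative medians, with 1.03% of all genes nominally lower. Among the latter Pck1, the gluconeogenic carboxykinase that fat also expresses, read 255.41, 362.13 and 24.18 FPKM in DIOC and 8.87, 7.86 and 18.68 FPKM in T1DC, its high values being in the libraries high in adipose transcripts.

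Few markers of the resident cells of the lung met the nominal criterion, and none was called. No member of the alveolar type 2 (20 tested), alveolar type 1 (15), club and goblet (19), ciliated (19), smooth muscle (20) or mesothelial (11) lists met the nominal criterion, and the list medians lay between -0.23 and 0.16. Of 30 capillary and general endothelial genes 1 was nominally higher, of 20 artery, vein and lymphatic endothelial genes 2 were higher, and of 25 fibroblast genes 1 was higher and 1 lower. Over all genes 1.22% were nominally higher and 1.03% lower. Of 19 alveolar macrophage genes 2 were nominally lower, with overlap: the scavenger receptor Marco read 20.44, 22.16 and 4.23 FPKM in DIOC and 8.36, 2.63 and 2.26 FPKM in T1DC, and the fatty acid binding protein gene Fabp1, which hepatocytes also express, read 13.58, 10.84 and 54.5 against 16.77, 5.16 and 2.72 FPKM. Heat shock chaperones (20), the unfolded protein response (30) and immediate early genes (23) had no member at the nominal criterion. A p that misses the criterion does not show that levels were equal.

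The same contrast in mice that breathed PM, T1DE against DIOE, gave 76 called genes (0.544%), 54 higher and 22 lower, with 195 nominally higher (1.4%) and 351 nominally lower (2.51%). Transcripts of other tissues differed here too. Squamous markers had a mean log2(FPKM + 1) of 4.96, 4.56 and 3.92 in DIOE and 0.63, 4.14 and 1.33 in T1DE. Of 19 squamous genes 10 were nominally lower. Skeletal muscle markers had a median log2 change of -1.97 in PM and 0.93 in filtered air. The part of these tissues in the PM contrast and in the difference between airs was not tested. Psrc1 was called in both airs. Its PM levels were 1.70, 1.08 and 0.84 FPKM in DIOE and 2.15, 2.12 and 2.97 FPKM in T1DE, a log2 change of 0.64 (adjusted p = 0.0478). Glb1l2 changed by -0.53 (adjusted p = 0.0471), short of the fold required, Ifi44 by 0.84 (adjusted p = 0.0564) and Iqgap3 by 0.38 (adjusted p = 0.214).

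The difference between the airs was itself tested, and no gene passed adjustment, with 92 genes nominally higher and 175 nominally lower in the PM contrast than in the filtered-air contrast. Interferon-stimulated genes had a median log2 change of 0.29 in PM with 4 of 45 nominally higher, against 1.4% of all genes. For 9 of the 45 the difference between airs met the nominal criterion, all smaller in PM, against 175 of all 13973 genes. Their filtered-air median of 0.86 was 0.55 without T1DC replicate 3. Mitosis genes had similar medians, 0.69 in filtered air and 0.56 in PM, with 17 and 14 of 33 nominally higher. For p53 targets the medians were 0.32 and 0.45, with 8 and 9 of 24. B and plasma cell genes had a median of -0.99 in PM with 8 of 15 nominally lower, and neutrophil genes -1.30 with 6 of 15. Over all genes 2.51% were nominally lower in PM. Fatty acid oxidation had a median of -0.19 in PM with no gene at the criterion. Adipocyte markers, which this list followed in the filtered-air obese libraries, overlapped between the groups in PM. Their mean log2(FPKM + 1) was 5.13, 5.06 and 4.42 in DIOE and 2.26, 5.31 and 4.92 in T1DE. The part of adipose tissue in the smaller median was not tested. Heat shock chaperones went from a median of 0.05 and 0 of 20 nominally higher in filtered air to 0.51 and 9 of 20 in PM. For 6 of the 20 the difference between airs met the nominal criterion, all larger in PM, against 92 of all 13973 genes.

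Some single genes had a small unadjusted p for the difference between airs. Ncr1 was higher in T1D than DIO in filtered air and read 3.16, 2.80 and 1.65 FPKM in DIOE and 1.54, 2.06 and 2.06 FPKM in T1DE (unadjusted p of the difference 0.000423). Eda2r differed more in PM, at 0.89, 0.89 and 0.61 FPKM in DIOE and 4.39, 4.50 and 3.98 FPKM in T1DE (unadjusted p of the difference 0.000587). Dnajb1, a co-chaperone of HSP70, read 18.64, 22.36 and 25.99 FPKM in DIOC and 16.69, 18.13 and 19.14 FPKM in T1DC, but 21.27, 24.95 and 19.31 FPKM in DIOE and 34.98, 43.83 and 55.34 FPKM in T1DE (unadjusted p of the difference 0.000353). None of these differences passed adjustment over all genes.

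**Figure D5:**
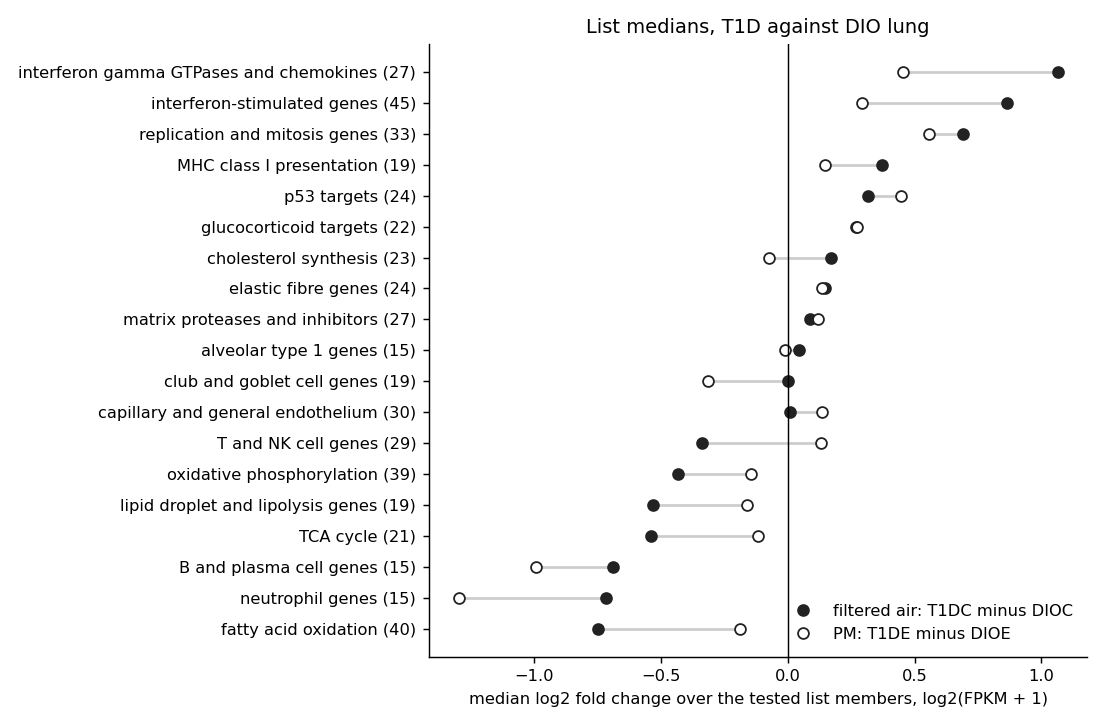
Median log2 fold change of T1D against DIO lung over the tested members of 19 gene lists (x axis, numbers of tested genes in parentheses), in filtered air (filled) and in PM (open). Interferon lists have the highest medians in filtered air (1.06 and 0.86) and lower ones in PM (0.45 and 0.29), mitosis genes are alike in both (0.69 and 0.56), and fatty acid oxidation is lowest in filtered air (-0.75).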

How the data were processed

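Poly-A RNA from frozen lung was sequenced on the BGISEQ-500 platform. Per the labels and the methods of the study, reads were aligned to GRCm38 with Bowtie2 and quantified with RSEM; no source used here gives their versions, the annotation or the strand setting. The authors deposited FPKM per gene for each library (2 decimals), scaled to library total and transcript length, so a tissue that adds abundant transcripts lowers all others. Raw counts were not used here, and the count test of the study was replaced by limma.

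Log2(FPKM + 1) values of the 13973 genes at 1 FPKM or more in 3 lung libraries were fitted with limma 3.58.1 (R 4.3.3) with 6 group means over 18 libraries and trended empirical Bayes; p-values were Benjamini-Hochberg adjusted within each contrast. Fold changes on this scale understate the change of low genes. The labels name 3 samples a group, so p-values measure the spread between these samples. Symbols of 30 genes that read as dates or were missing were replaced through the gene ID. Named genes were all called genes, up to 15 per direction by smallest p (fold over 1.5, groups not overlapping, mean of 5 FPKM or more in the higher group), up to 4 per gene list by smallest p, and for called genes the 5 most correlated genes, with make-up markers as examples; some genes that this rule selects are not reported here. The 60 gene lists and the comparison were chosen with earlier results of these data known. Fragments per library came from the step between low FPKM values of single-transcript genes, with transcripts shortened by 100 bases (0 and 200 as alternatives); 60.9 to 72.7% of such values then lay within 0.15 of a whole count. Promoter windows were RefSeq's (GRCm38.p6). The code was tested on simulated data. Alternatives were pseudocount, filter, scaling, samples in the fit, replicate block, make-up covariates and leaving out each library.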

Additional observations from a re-analysis of the deposited data

How the results depend on the processing

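Over 85 named genes and 19 alternatives, 1521 of 1615 log2 changes kept their direction and their side of the threshold, 51 newly passed, 42 no longer passed and 1 turned (Cxcl5, a neutrophil chemokine, from -1.22 to 0.001 without DIOC replicates 1 and 2). All but 4 of these genes were not called in the main fit, so keeping their side mostly meant staying uncalled. The 42 losses all fell on the 4 called genes. Of 19 alternatives, Glb1l2 was called in 12, Ifi44 in 9, Psrc1 in 7 and Iqgap3 in 6. Against 4 called genes, a pseudocount of 0.1 gave 2, median-ratio scaling 9, the 6 libraries alone 0, the muscle and squamous covariate 107, 3 make-up covariates 0, adipocyte and cartilage covariates 0 and the fit without DIOC replicates 1 and 2 gave 1. Leaving out single libraries gave 0 (T1DC replicate 3 or DIOC replicate 1) to 28 (T1DC replicate 2). Against 315 nominal genes these fits gave 609 with the muscle and squamous covariate, 157 with 3 make-up covariates, 618 without DIOC replicates 1 and 2, and 187 (without T1DC replicate 3) to 753 (without DIOC replicate 3) with a library left out. Against 76 called genes in PM, no filter gave 44, median-ratio scaling 47 and single libraries left out 6 to 53. The difference between airs gave 0 to 1 gene with a library left out. The fit without DIOC replicates 1 and 2 has 1 obese library, assumed to vary like the other groups. That pair and the adipocyte and cartilage scores were chosen after seeing the data. The causes were not tested.

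Replicate numbers are shared between the groups. Same-numbered libraries correlated at 0.081, 0.174 and 0.121 in their deviations, each best with its own number, which is a hint from the data and not the design. With a replicate block 1 gene was called in filtered air and 50 in PM.

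Depth of about 20100000 fragments or fewer limits genes under 1 FPKM, such as Iqgap3 in DIOC, to few reads. Values of T1DC rest on libraries that differ in interferon and lymphocyte transcripts, and those of DIOC on libraries that differ in adipose, muscle and hepatocyte transcripts.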

Other observations

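Liver files of the same groups hold the called genes too, and were not used in the comparison; whether a lung and a liver library with the same number came from 1 mouse is not stated. Psrc1 read 0.0, 0.0 and 0.1 FPKM in liver DIOC and 2.94, 1.12 and 2.22 FPKM in liver T1DC. Ifi44 read 0.81, 0.84 and 1.69 against 8.28, 4.01 and 2.33 FPKM, and Iqgap3 0.03, 0.03 and 0.01 against 0.4, 0.2 and 0.42 FPKM. All 3 were thus above the DIOC range in every T1DC liver library, while Glb1l2 was at or below 0.04 FPKM in all 6. Over the interferon-stimulated list, mean log2(FPKM + 1) in liver was 2.35, 2.22 and 2.72 in DIOC and 3.59, 3.32 and 2.96 in T1DC, so that replicate 3, the highest T1DC library in lung, was the lowest in liver. Targets of p53 had liver means of 2.66, 2.63 and 2.73 in DIOC and 3.77, 3.44 and 4.15 in T1DC.

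Platelet transcripts were examined after G6b and Clec1b, receptors of platelets, had appeared among the lower genes, so the list was chosen after its values were seen and has no test. Of 22 genes, 20 had negative log2 changes with a median of -0.45. In 3 (Pf4, and G6b and Clec1b, which prompted the list) all T1DC libraries lay below all DIOC libraries, against 5.44% of all genes. Pf4, platelet factor 4, read 49.34, 36.51 and 70.44 FPKM in DIOC, 29.91, 32.11 and 22.88 FPKM in T1DC and 31.0, 31.7 and 34.91 FPKM in NDC. The endothelial and platelet gene Vwf, which endothelium also makes, went the other way at 110.54, 96.8 and 124.2 against 158.2, 111.71 and 182.8 FPKM, with overlap.

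Retinoid genes were listed in the same way after Lrat and Cyp26b1 had been seen. Of 25 tested, 4 lay above DIOC in all T1DC libraries (Lrat, Cyp26b1, Rarb and Rdh11) and 5 below (Retsat, Bco2, Rarres1, Rarres2 and Adh1), and the median log2 change was -0.09. Over all genes the shares were 8.14% above and 5.44% below. The counts include Lrat and Cyp26b1, which prompted the list, and Retsat, which had also been seen. Rarb, a retinoic acid receptor that is itself induced by retinoic acid, read 2.74, 3.02 and 2.5 FPKM in DIOC and 3.59, 3.41 and 3.62 FPKM in T1DC. The receptors Rara, Rarg, Rxra and Rxrb had log2 changes between -0.09 and 0.05.

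The clock gene Nr1d1 (REV-ERB alpha) read 12.56, 14.58 and 7.43 FPKM in DIOC, 25.22, 13.27 and 26.54 FPKM in T1DC and 61.77, 77.48 and 75.30 FPKM in NDC, with no test against NDC. Over the whole clock list, mean log2(FPKM + 1) was 3.42 to 3.57 in DIOC, 3.43 to 3.63 in T1DC and 3.64 to 3.84 in NDC, nearly touching. No source used here states the time of day of collection, and its part in these levels was not tested.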
